A study of Homo sapiens with 12 samples.

Results

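The BMP and SMAD response genes described here are 10 named genes, ID1, ID2, ID3, ID4, SMAD3, SMAD6, SMAD7, BAMBI, BMP2 and BMP4, of the 22963 gene names in the expression table. They were chosen by name for their place in the pathway, and all 10 had a row in the table. Messenger RNA was sequenced from 12 libraries of human hepatocellular carcinoma cell lines in 4 groups of 3, to ask how expression differs with the level of EGR1, a zinc finger transcription factor induced by growth signals. PLC/PRF5 cells carried either the empty vector or EGR1, expressed from the CMV promoter of a lentiviral plasmid. MHCC97H cells were either parental (wild type) or labelled EGR1 knockout, made with a lentiviral CRISPR/Cas9 plasmid and grown from single clones. Which clone or clones were sequenced is not stated. The parental libraries are also labelled Mock, and no control virus is described for them. A property of a clone, an effect of the virus and an effect of the edit therefore cannot be told apart. All cells grew in DMEM with 10% fetal bovine serum, and the labels name no added BMP or TGF-β.

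Bone morphogenetic proteins (BMPs) are secreted ligands that bind paired type I and type II receptor kinases. The receptors phosphorylate receptor-regulated SMAD proteins, which join SMAD4, enter the nucleus and bind DNA, and TGF-β uses the same scheme with other receptors and with SMAD2 and SMAD3. The ID genes are among the most direct targets of BMP signalling, and their proteins hold basic helix-loop-helix (bHLH) factors away from DNA. SMAD6, SMAD7 and BAMBI are induced by the pathway and feed back to restrain it, and in liver BMP signalling is best known for its control of iron balance.

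The promoters of these genes are shown because the pathway and EGR1 both act through short DNA motifs, which can lie near transcription starts. RefSeq (GRCh38.p14) gave the 250 bases upstream of the start for 9 of the 10 genes, in 17 windows because SMAD3, SMAD7 and BMP4 have several starts. 4 motifs were searched on both strands, the EGR1 sites GCGGGGGCG and GCGTGGGCG, the GC-rich SMAD element GGCGCC and the SMAD box GTCTG. No match overlapped another. Each stretch below is the part of the window that lies outside annotated exons, read 5′ to 3′ on the gene's strand, with motif matches on either strand in capitals. ID1 (chr20:31605039-31605282) is shown because its deposited values were the highest of the 10 genes, and ID4 (chr6:19837120-19837369) for its EGR1 site. SMAD6 (chr15:66701986-66702227) and BAMBI (chr10:28677271-28677341) are shown as feedback genes whose groups did not overlap within either cell line, without and with SMAD motifs.
ID1: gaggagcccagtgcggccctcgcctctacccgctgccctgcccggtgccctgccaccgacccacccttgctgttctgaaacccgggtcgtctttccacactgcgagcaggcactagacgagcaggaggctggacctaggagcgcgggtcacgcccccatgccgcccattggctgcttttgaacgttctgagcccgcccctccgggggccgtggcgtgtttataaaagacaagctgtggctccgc
ID4: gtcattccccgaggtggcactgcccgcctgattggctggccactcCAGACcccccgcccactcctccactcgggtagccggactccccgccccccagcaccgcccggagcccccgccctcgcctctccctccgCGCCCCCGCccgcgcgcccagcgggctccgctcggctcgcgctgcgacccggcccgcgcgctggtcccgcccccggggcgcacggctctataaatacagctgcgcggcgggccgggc
SMAD6: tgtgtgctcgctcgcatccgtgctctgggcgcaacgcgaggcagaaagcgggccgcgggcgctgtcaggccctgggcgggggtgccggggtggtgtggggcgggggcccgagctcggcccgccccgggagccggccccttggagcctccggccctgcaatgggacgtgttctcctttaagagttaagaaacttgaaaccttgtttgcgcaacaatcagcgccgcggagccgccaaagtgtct
BAMBI: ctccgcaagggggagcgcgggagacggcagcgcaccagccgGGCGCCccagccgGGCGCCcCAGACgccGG

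In the whole windows, GCGGGGGCG was found once, in ID4 at position -117 from the start, and 4.72% of the 35116 human promoters in the table held it. GCGTGGGCG was in none of the 17 windows and in 0.720% of all promoters. GGCGCC was found 3 times in BAMBI, where the last match runs into the first exon and is cut off above, 2 times at 1 start of SMAD3 and once at 1 start of BMP4. It was in 16.4% of all promoters. GTCTG was in windows of 6 genes (ID3, ID4, SMAD3, SMAD7, BAMBI and BMP4) and in 38.0% of all promoters. ID1, ID2 and SMAD6 held none of these letters in the windows searched. The matches are a description of sequence only, and sequence outside these windows was not searched.

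The values are FPKM, fragments scaled to transcript length and to the number mapped in the library. This allows for length between genes, but not for the nuclease step described below, which depletes abundant cDNA. Ranks, shares and ratios between genes therefore describe the deposited values, and how far that step lowered ID1 or ID3 was not tested. The EGR1 level was 1.81 ± 0.328 FPKM (SD, n = 3) in vector cells and 52.9 ± 3.10 in EGR1 cells, as the label says. It was 21.5 ± 1.48 in parental MHCC97H cells and 39.5 ± 9.43 in the libraries labelled EGR1 knockout, higher by 0.83 on the log2(FPKM + 1) scale (limma, adjusted p = 0.00126), and after correction for transcript GC content and length by 0.42 (adjusted p = 0.0608). These libraries are therefore called by their label throughout, and messenger RNA does not measure EGR1 protein. The authors report that they checked their knockout clones by western blot and DNA sequencing. The hepatocyte marker list (12 genes) summed to 1774 to 1898 FPKM in vector cells, 2716 to 3686 in EGR1 cells, 68.3 to 74.8 in parental MHCC97H and 101 to 106 in the libraries labelled knockout. AFP, APOA1, APOA2, TTR and SERPINA1 were under 1 FPKM in parental MHCC97H. In the libraries labelled knockout APOA1, APOA2, APOB and SERPINA1 were, and in both PLC/PRF5 groups TTR was. The epithelial list (4 genes) summed to 1446 to 2643 FPKM over all libraries. EPCAM was under 1 in every group, and CDH1 in both PLC/PRF5 groups. The summed fibroblast list (5 genes) was 0.983 to 10.9 FPKM and the endothelial list (4 genes) at most 8.51 over all libraries, while the leukocyte list (4 genes) was 26.4 to 215 with PTPRC and CD3E under 1 in every group. The part of these shifts in the results was not tested. Across genes, the change in MHCC97H followed transcript GC content (Spearman's rho = 0.75 over the genes tested), and in PLC/PRF5 it went the other way (rho = -0.44), so values corrected for GC content and length are given beside the deposited ones for the 10 genes where the correction changes a call or a direction or moves a called value by more than 1.5 times, and by range or by name for the other pathway genes. A true response that tracks GC content is taken out by the correction as well.

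ID1 led the 10 genes in every group, and ID3 and BAMBI came next in every group, although BAMBI overlapped ID2 in EGR1 cells. ID1 stood above 99.7% of gene names in vector cells (rank 75 of 22963), and above 99.5% in the libraries labelled knockout. In vector cells the order of mean FPKM was ID1, ID3, BAMBI, ID2, SMAD3, SMAD6, BMP4, ID4, SMAD7 and BMP2, with no overlap between neighbours. In parental MHCC97H cells the order was ID1, ID3, BAMBI, SMAD3, ID2, BMP2, SMAD6, BMP4, SMAD7 and ID4, and there SMAD6 and BMP4 overlapped. The sum of the 10 genes was 1185 ± 89.5 FPKM in vector, 920 ± 32.7 in EGR1, 797 ± 48.6 in parental and 1091 ± 62.4 in labelled knockout libraries (SD, n = 3), most of it from ID1 and ID3.

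Among the ligands, BMP2, named for its ability to induce bone, separated the lines. BMP2 was 0.503, 0.507 and 0.474 FPKM in the vector libraries and 0.453, 0.341 and 0.414 in the EGR1 libraries. In MHCC97H it was 13.1, 13.4 and 12.5 in parental and 21.0, 19.5 and 20.6 in the libraries labelled knockout. Every MHCC97H library was thus far above every PLC/PRF5 library, and the labelled knockout libraries were all above the parental ones. BMP2 was higher in the libraries labelled knockout by 0.61 ± 0.0857 on the log2(FPKM + 1) scale (SE, limma, adjusted p = 0.000347), and by 0.37 after GC and length correction (adjusted p = 0.00255).

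BMP4, the close relative of BMP2, was 10.3, 11.0 and 10.4 FPKM in vector, 10.5, 11.4 and 13.3 in EGR1, 8.39, 8.21 and 10.1 in parental and 6.47, 4.99 and 5.62 in labelled knockout libraries. The PLC/PRF5 groups overlapped and the MHCC97H groups did not. BMP4 was lower in the libraries labelled knockout by 0.57 (log2 difference -0.57 ± 0.12, adjusted p = 0.00322), and after GC and length correction the difference was -1.01 (adjusted p = 0.000213). BMP2 was higher in the same libraries. The ratio of BMP2 to BMP4 within a library was 1.47 ± 0.212 in parental and 3.61 ± 0.336 in labelled knockout libraries, with no overlap (exact permutation p = 0.1, two-sided, the smallest that 3 libraries against 3 allow). In vector cells this ratio was 0.0467 ± 0.00169.

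SMAD3, a receptor-regulated SMAD of TGF-β and activin, did not pass the test within either line. It was 26.4, 22.4 and 27.4 FPKM in vector and 28.3, 27.1 and 26.7 in EGR1 libraries, and 47.1, 48.6 and 51.5 in parental and 51.0, 48.3 and 47.3 in labelled knockout libraries. Groups of the same line overlapped, and every MHCC97H library was above every PLC/PRF5 library. The EGR1 difference was 0.11 (95% interval -0.11 to 0.33, log2 scale, adjusted p = 0.41), and the labelled knockout difference was -0.0051 (95% interval -0.19 to 0.18, adjusted p = 0.958). Quantile normalization gave the latter as -0.23 (adjusted p = 0.0278), past the threshold.

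The feedback genes passed the threshold in both lines as deposited, but only BAMBI did so in both with GC and length correction. BAMBI, a membrane protein that resembles a type I receptor but lacks the kinase, was 93.8, 101 and 98.8 FPKM in vector and 80.7, 71.8 and 75.5 in EGR1 libraries. It was 54.0, 53.1 and 56.7 in parental and 119, 114 and 124 in labelled knockout libraries, and the groups of each line did not overlap. BAMBI was lower with EGR1 (log2 difference -0.36 ± 0.0843, adjusted p = 0.0134). In the libraries labelled knockout it was higher by 1.11 ± 0.080 (adjusted p = 2.13e-05), a change larger than that of 94.2% of the genes tested, and by 0.81 after GC and length correction (adjusted p = 2.61e-05).

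SMAD6, the inhibitory SMAD that acts chiefly on BMP receptors, was 14.2, 13.2 and 13.2 FPKM in vector and 11.8, 7.93 and 9.45 in EGR1 libraries, with EGR1 replicate 2 the lowest. In MHCC97H it was 9.83, 10.9 and 11.6 in parental and 18.1, 18.3 and 16.8 in labelled knockout libraries. As for BAMBI, all EGR1 libraries lay below vector and all labelled knockout libraries above parental. SMAD6 was lower with EGR1 (log2 difference -0.45 ± 0.13, adjusted p = 0.0305) and higher in the libraries labelled knockout (0.67 ± 0.0967, adjusted p = 0.000411). The latter was 0.18 after GC and length correction and no longer passed (adjusted p = 0.0563). A gene on the same strand overlaps SMAD6 in the annotation, so its reads could be split between them.

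SMAD7, the inhibitory SMAD that acts on both BMP and TGF-β receptors, was 4.27, 4.15 and 4.47 FPKM in vector and 5.65, 5.66 and 6.34 in EGR1 libraries. It was 4.83, 4.55 and 4.87 in parental and 7.27, 6.41 and 5.80 in labelled knockout libraries. Unlike SMAD6, SMAD7 was higher in both comparisons, by 0.38 ± 0.0933 with EGR1 (adjusted p = 0.0168) and by 0.38 ± 0.109 in the libraries labelled knockout (adjusted p = 0.0126). In MHCC97H the GC and length correction turned this to -0.12 (adjusted p = 0.304). The ratio of SMAD6 to SMAD7 within a library was 3.16 ± 0.177 in vector and 1.66 ± 0.376 in EGR1 libraries, and 2.28 ± 0.211 in parental and 2.75 ± 0.219 in labelled knockout libraries, with no overlap in either line (exact permutation p = 0.1 each).

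The ID targets did not move as 1 group. ID1 was 664, 773 and 670 FPKM in vector and 496, 526 and 549 in EGR1 libraries, so that every EGR1 library was lower. ID1 was 462, 469 and 522 in parental and 455, 505 and 534 in labelled knockout libraries, which overlapped. With EGR1 the log2 difference was -0.42 ± 0.11 (adjusted p = 0.0198), and in the libraries labelled knockout it was 0.04 (95% interval -0.19 to 0.26, adjusted p = 0.747). The direction of the MHCC97H difference changed with the scaling: it was -0.12 with every library set to the same total (adjusted p = 0.242), -0.23 with quantile normalization (adjusted p = 0.0129) and -0.60 with GC and length correction (adjusted p = 0.000141).

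ID3, often expressed and induced together with ID1, was lower with EGR1 as ID1 was, and higher in the libraries labelled knockout, where ID1 did not pass. It was 261, 292 and 262 FPKM in vector and 173, 182 and 194 in EGR1 libraries, and 127, 136 and 155 in parental and 341, 336 and 388 in labelled knockout libraries. Neither line had overlap between its groups, and the labelled knockout libraries held the highest ID3 of the 4 groups. ID3 was lower with EGR1 (log2 difference -0.56 ± 0.0942, adjusted p = 0.00363), and this held without any single library (adjusted p of at most 0.0192). It was higher in the libraries labelled knockout by 1.35 ± 0.10 (adjusted p = 2.79e-05), and by 0.76 after GC and length correction (adjusted p = 3.73e-05). As deposited, this change was larger than that of 97.9% of the genes tested, counting changes in either direction.

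ID2 went the opposite way to ID3 in both lines. It was 44.8, 63.2 and 51.7 FPKM in vector and 77.8, 74.3 and 75.6 in EGR1 libraries, and 35.4, 33.0 and 28.1 in parental and 20.4, 21.9 and 18.3 in labelled knockout libraries. All EGR1 libraries were above vector and all labelled knockout libraries below parental. ID2 was higher with EGR1 by 0.52 ± 0.12 (adjusted p = 0.0136) and lower in the libraries labelled knockout (log2 difference -0.64 ± 0.11, adjusted p = 0.001; -1.04 after GC and length correction). An antisense gene overlaps ID2, and without a stated strand setting its reads cannot be told from those of ID2.

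ID4, the ID gene best known from the nervous system, was low. It was 5.39, 7.01 and 5.97 FPKM in vector and 8.41, 5.94 and 6.11 in EGR1 libraries, which overlapped (difference 0.13, 95% interval -0.19 to 0.45, adjusted p = 0.519). In MHCC97H it was 0.359, 0.386 and 0.182 in parental and 0.0111, 0.0667 and 0.0178 in labelled knockout libraries. All 3 labelled knockout libraries were lower, but the mean was under the filter of 1 FPKM. Without the filter the difference was -0.34 (adjusted p = 0.00858). An uncharacterised gene on the other strand overlaps ID4, and 2 such genes overlap SMAD3, with the same limit as for ID2.

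Within a library, the mix of ID genes differed between groups. A scaling of the whole library cancels there, but an effect of GC content, length or abundance on single genes does not. The shares and ratios are from deposited values, without GC and length correction. ID3 made up 26.3% ± 0.534 of the ID sum in vector and 23.2% ± 0.324 in EGR1 libraries, and 21.2% ± 0.827 in parental and 40.7% ± 1.53 in labelled knockout libraries (SD, n = 3). The share of ID2 was 5.13% ± 0.493 in vector and 9.63% ± 0.593 in EGR1, and 4.95% ± 0.865 in parental and 2.33% ± 0.334 in labelled knockout libraries. The ratio of ID1 to ID3 was 2.59 ± 0.0556 and 2.86 ± 0.0336 in PLC/PRF5, and 3.49 ± 0.14 and 1.40 ± 0.0887 in MHCC97H. None of these overlapped within a line, and each had an exact permutation p of 0.1, the smallest possible. The ratio of ID1 to BAMBI overlapped in PLC/PRF5, at 7.17 ± 0.438 and 6.91 ± 0.666 (exact permutation p = 0.7), and in MHCC97H it was 8.87 ± 0.335 and 4.19 ± 0.328 (exact permutation p = 0.1). The ratio of ID3 to BAMBI moved less, from 2.55 ± 0.192 in parental to 2.98 ± 0.135 in labelled knockout libraries (exact permutation p = 0.1). After GC and length correction the MHCC97H log2 difference was 0.76 for ID3 and 0.81 for BAMBI, against 1.35 and 1.11 as deposited. The rise of this ratio was thus not kept.

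**Figure D1:**
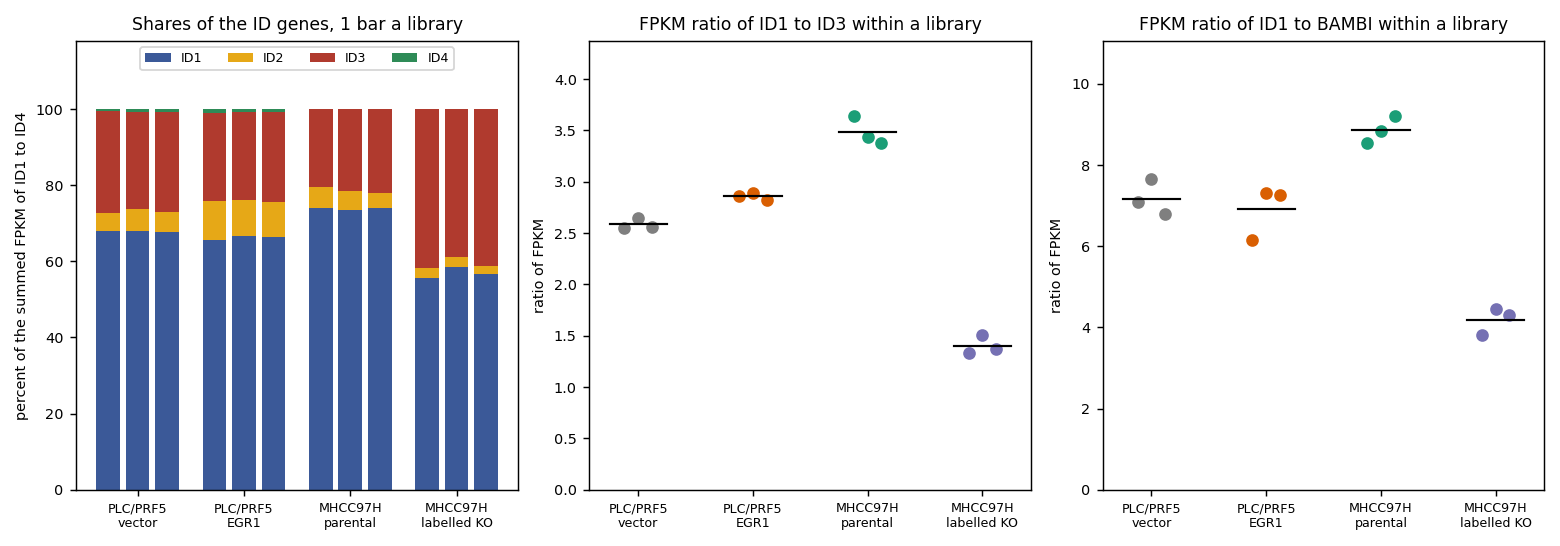
Left, the percent of the summed FPKM of ID1 to ID4 that each ID gene holds, 1 stacked bar for each of the 12 libraries; middle and right, the within-library FPKM ratios of ID1 to ID3 and of ID1 to BAMBI (points are libraries, lines are means of 3). The ID3 share is largest in the 3 libraries labelled knockout, where the ratio of ID1 to ID3 is 1.40 against 3.49 in parental cells.

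Counting over the genes, 6 of the 9 tested in PLC/PRF5 passed the threshold, 2 higher (ID2 and SMAD7) and 4 lower (ID1, ID3, SMAD6 and BAMBI), and BMP2 was under the filter. Of all 11671 genes tested, 29.6% passed, 19.2% higher and 10.4% lower, and 47.7% had groups that did not overlap, as had the 6 genes named. This count rested on single libraries: 2 genes passed without vector replicate 3, where 19.2% of all genes did, and 2 without EGR1 replicate 2, where 16.5% did. ID1 was lost without any 1 of the vector libraries or EGR1 replicate 2 (adjusted p 0.0507 to 0.0672), and SMAD6 without vector replicate 1 or 3 or EGR1 replicate 2 or 3 (adjusted p 0.0756 to 0.107). BAMBI was lost without vector replicate 3 (adjusted p = 0.0563) or EGR1 replicate 2 (0.0674), SMAD7 without EGR1 replicate 2 (0.054) or 3 (0.0792), and ID2 without vector replicate 3 (0.0519). ID1 and SMAD6 were also lost without the filter on low values (adjusted p = 0.0533 for ID1 and 0.0738 for SMAD6), and SMAD7 with quantile normalization (0.22, adjusted p = 0.129). Of all genes that passed, 64.8% were higher, against 46.0% with quantile normalization and 48.6% with GC and length correction.

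In MHCC97H, 7 of the 9 tested genes passed, 5 higher (ID3, BAMBI, SMAD6, BMP2 and SMAD7) and 2 lower (ID2 and BMP4), with ID4 under the filter. The share was close to that of all 11577 genes tested, of which 66.3% passed, 34.8% higher and 31.5% lower, and 71.8% had groups that did not overlap. Of all genes that passed, 52.5% were higher, and with every library set to the same total 41.6%, where the median of all genes shifted from 0.02 to -0.11 on the log2 scale. With equal totals 4 of the 9 genes were higher and 2 lower, where 65.5% of all genes passed. The same counts held without parental replicate 2, where 55.6% of all genes passed. Quantile normalization gave 5 higher and 4 lower, where 65.6% of all genes passed. With GC and length correction, 3 of the 9 genes were higher (ID3, BAMBI and BMP2) and 3 lower (ID1, ID2 and BMP4), in a fit where 47.5% of 10806 genes passed. In these bulk libraries, fewer cells that express a gene and less of its RNA per cell cannot be told apart.

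**Figure D2:**
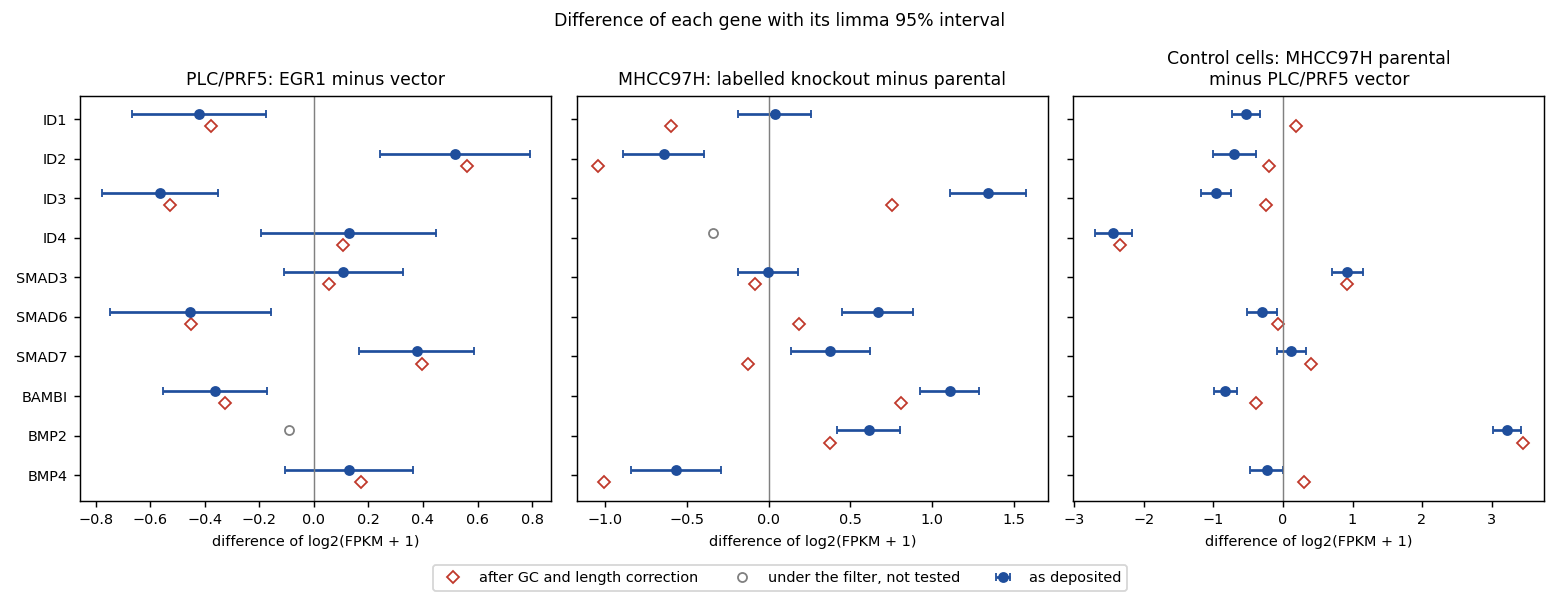
Difference of log2(FPKM + 1) for each gene in the 3 comparisons; filled points with bars are the deposited values with the limma 95% interval, open diamonds the same after GC and length correction, and gray open circles genes under the filter. ID3 and BAMBI lie below 0 in PLC/PRF5 and above 0 in MHCC97H with both kinds of value, while ID1 in MHCC97H lies at 0.04 and, corrected, at -0.60.

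The control cells of the lines were also set side by side, with parental MHCC97H against vector PLC/PRF5. The lines differ in the empty vector as well as in origin, which cannot be told apart, and these libraries also serve as controls above. BMP2 was higher in MHCC97H, with a ratio of the group means of 26.2, and SMAD3 was higher by 0.93 ± 0.095 (adjusted p = 2.27e-05). ID4 was lower by 2.44 on the log2 scale (log2 difference -2.44). BMP2 and ID4 passed the filter only through the line where each is high. ID1 (-0.53), ID2 (-0.70), ID3 (-0.96), SMAD6 (-0.30) and BAMBI (-0.83) were lower in MHCC97H on the log2 scale (adjusted p between 7.37e-06 and 0.0154), while SMAD7 (0.12, adjusted p = 0.249) and BMP4 (-0.23, adjusted p = 0.0637) did not pass. Of all 12046 genes tested, 79.8% passed, 38.8% higher and 40.9% lower, and 81% did not overlap, so a difference of this kind was the rule. After GC and length correction ID1 was higher by 0.18 (adjusted p = 0.0128), BMP4 by 0.31 (adjusted p = 0.00283) and SMAD7 by 0.40 (adjusted p = 0.00116). ID3 and BAMBI were still lower but by less, at -0.25 (adjusted p = 0.00123) and -0.38 (adjusted p = 8.38e-05), while ID2 (-0.20, adjusted p = 0.197) and SMAD6 (-0.07, adjusted p = 0.284) no longer passed.

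The other genes of the pathway were read from lists by role, 103 genes in all. In PLC/PRF5, 56 were tested, 15 were higher and 6 lower with EGR1, 37.5% of those tested against 29.6% of all genes. Their median difference was 0.17 against 0.09 for all genes tested, and after GC and length correction 0.0095 against 0.0025. Of 9 other ligands tested 5 were higher and 1 lower, of 9 receptors and co-receptors 2 were higher, of 13 SMAD regulators 2 were higher, and of 12 other target genes 2 were higher and 4 lower. Of 7 extracellular antagonists and modulators 1 was higher and 1 lower, of 4 other SMADs 1 was higher, and both bHLH partners of the ID proteins that were tested were higher. In MHCC97H, 53 were tested, 16 were higher and 21 lower, 69.8% of those tested against 66.3% of all genes. Their median was -0.10 against 0.02, and after the correction -0.0057 against -0.0049. There 4 of 6 ligands were higher and 2 lower, 1 of 11 receptors was higher and 4 lower, 2 of 13 SMAD regulators were higher and 7 lower, and 6 of 12 target genes were higher and 3 lower. Of 5 antagonists 2 were higher and 1 lower, 3 of 4 other SMADs were lower, and of the 2 bHLH partners 1 was higher and 1 lower. With GC and length correction 23 rather than 37 of the pathway genes passed in MHCC97H, in a fit where 47.5% of all genes did. The same correction gave 26 rather than 21 in PLC/PRF5, where 33.8% of all genes passed. Without EGR1 replicate 2, 13 rather than 21 passed in PLC/PRF5, where 16.5% of all genes did.

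Of these genes, 16 passed in both lines, 6 in the same direction and 10 in opposite directions. The matching shares over all genes were not counted, so this split cannot be read as particular to the pathway. Across all genes tested, the change followed GC content in opposite senses in PLC/PRF5 (rho = -0.44) and MHCC97H (rho = 0.75). The ligands TGFB1, BMP6 and GDF15 were higher in both. TGFB1, the main TGF-β ligand, was 28.5 ± 4.09 FPKM with EGR1 and 17.5 ± 0.921 with vector (adjusted p = 0.00349), and 76.8 ± 7.83 in labelled knockout and 44.6 ± 3.22 in parental libraries (adjusted p = 0.000252). BMP6, the ligand best known for control of hepcidin in liver, was 28.9 ± 1.10 with EGR1 against 18.5 ± 1.21, and 11.2 ± 0.719 in labelled knockout against 8.07 ± 0.560 in parental libraries. JUNB, an early TGF-β target, and TCF3, a bHLH partner of the ID proteins, were also higher in both, and HEY1, a bHLH repressor induced by BMP and Notch, was lower in both. In MHCC97H none of TGFB1, BMP6, GDF15, JUNB and TCF3 passed after GC and length correction (adjusted p between 0.0587 and 0.786), and the differences of JUNB (-0.10) and TCF3 (-0.05) were then below 0.

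In 7 genes the level was higher with EGR1 and lower in the libraries labelled knockout. They were INHBB (an activin subunit), the receptor BMPR2, the co-receptor TGFBR3, the BMP-responsive SMAD5, the SMAD regulators TRIM33 and USP15, and the bHLH partner TCF12. SMAD5 was 8.53 ± 0.694 FPKM with EGR1 against 5.93 ± 0.787 with vector (adjusted p = 0.0164), and 4.48 ± 0.643 in labelled knockout against 7.95 ± 0.746 in parental libraries (adjusted p = 0.00101). After GC and length correction its difference was 0.05 in PLC/PRF5 and 0.002 in MHCC97H, neither of which passed. BMPR2 changed sign with the correction and passed in neither line (-0.10, adjusted p = 0.374, and 0.10, adjusted p = 0.391), and USP15 passed in neither (adjusted p = 0.526 and 0.96). TGFBR3 was lost in PLC/PRF5 (adjusted p = 0.101) and TRIM33 in MHCC97H (adjusted p = 0.0872). INHBB and TCF12 still passed in both lines, TCF12 at 0.25 and -0.22 (adjusted p = 0.0237 and 0.0451). The other 3 were lower with EGR1 and higher in the libraries labelled knockout, as were ID3, SMAD6 and BAMBI. They were ATOH8, a bHLH gene that responds to BMP in liver cells, GATA3, a transcription factor, and TGFBI, a secreted matrix protein induced by TGF-β. ATOH8 was 0.909 ± 0.0924 FPKM with EGR1 against 1.84 ± 0.244 with vector, where it passed the filter on the mean only through the vector libraries, and 8.42 ± 0.708 in labelled knockout against 3.26 ± 0.270 in parental libraries (adjusted p = 5.34e-05). GATA3 and TGFBI also passed in both lines after GC and length correction, at -0.85 and -0.51 in PLC/PRF5 and 0.75 and 0.51 in MHCC97H. Whether the effects differ between the lines was not tested, since 1 line was given EGR1 and the other is labelled as having lost it.

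Among the largest changes in these lists were LTBP1, which holds latent TGF-β in the matrix, lower with EGR1 (1.69 ± 0.177 against 4.79 ± 0.183 FPKM, adjusted p = 0.000195), and DLX2, a homeobox target, at 2.54 ± 0.598 against 0.682 ± 0.0392, which passed the filter on the mean only through the EGR1 libraries. In the libraries labelled knockout, NBL1, a BMP antagonist, was higher (18.9 ± 2.54 against 8.08 ± 1.58 FPKM, adjusted p = 0.000225). BMPR1A, a BMP type I receptor, was lower (4.08 ± 0.558 against 10.7 ± 1.59, adjusted p = 0.00011), as were SKIL, a SMAD corepressor (7.85 ± 3.14 against 20.6 ± 4.95), and the transcription factor GATA2 (1.15 ± 0.322 against 4.33 ± 0.479). These 4 genes passed with GC and length correction as well, but the difference of NBL1 went from 1.14 to 0.42, that of BMPR1A from -1.20 to -0.59 and that of SKIL from -1.32 to -0.50, while that of GATA2 went from -1.31 to -1.87.

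Over the 12 libraries, the genes whose log2(FPKM + 1) followed ID1 most closely were SPAG4, ACY1, the assembled locus MSTRG.1098, TSC22D3 and CA9, with Pearson's r of 0.97, 0.96, 0.95, 0.94 and 0.94 among 12090 genes. Libraries of a group share a line and a construct, so the 12 points are not independent. Each of the 5 was highest in vector cells, as ID1 was, and CA9, a carbonic anhydrase, had a mean of 41.4 FPKM in vector and 5.00 in EGR1 libraries. Of the other 9 genes described, ID4 came nearest with r = 0.63 and ID3 had r = 0.36, while SMAD3 had r = -0.74.

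The 10 genes lie at separate places in the genome (GENCODE release 29 on GRCh38), with 2 close neighbours: SMAD6 at chr15:66702228-66782848 and SMAD3 at chr15:67063763-67195195, both on the plus strand. ID1 lies at chr20:31605283-31606515 and BMP2 at chr20:6767664-6780280, both plus. ID2 lies at chr2:8678845-8684453 and ID4 at chr6:19837386-19840684 and BAMBI at chr10:28677342-28682939, all plus. ID3 (chr1:23557918-23559794), SMAD7 (chr18:48919853-48952052) and BMP4 (chr14:53949736-53958761) lie on the minus strand. The longest transcripts of SMAD6, SMAD7, ID1 and ID3 hold 58.9%, 58.7%, 58.6% and 57.2% G and C, against a median of 48.3% for the genes tested in MHCC97H, and those of BAMBI and BMP2 hold 51.0% and 52.1%.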

How the data were processed

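RNA of MHCC97H and PLC/PRF5 cells was purified with oligo(dT) beads, and libraries were treated with duplex-specific nuclease, which removes abundant double-stranded cDNA, and sequenced on an Illumina instrument. The authors deposited FPKM for 12 libraries and 22963 gene names. The labels name StringTie and hg38, and the aligner, the annotation and a strand setting are not given in the sources used here. FPKM give no read numbers, so the depth behind each value is unknown. No column was left out (0 columns not used). The labels call the replicates biological but do not say whether they were separate cultures, so p-values measure the spread between these libraries, which may be technical.

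FPKM were used as log2(FPKM + 1), which understates changes of low genes. Genes with a mean of at least 1 FPKM in the 6 libraries of a comparison were fitted with limma 3.58.1 (eBayes with trend) in R 4.3.3, two-sided and without covariates, with Benjamini-Hochberg adjustment over all genes tested and a threshold of 0.05. Ratios within a library were compared with exact permutation tests (scipy 1.17.1), which were not adjusted and cannot go below 0.1. For the GC and length correction, splines with 5 degrees of freedom on the GC content and log length of the longest GENCODE 29 transcript (19458 names matched) were removed from each library. The alternatives were 0.1 as pseudocount, any library above 0 as the only filter, equal totals, quantile normalization, no trend, a fit over all 12 libraries, a replicate block and leaving out each library. The fits were tested on simulated data. The 10 genes and the pathway and marker lists were chosen with earlier results of these data known. Pathway genes were named where they passed in both cell lines or were among the 3 largest rises or falls of a line.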

Additional observations from a re-analysis of the deposited data

How the results depend on the processing

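The number of the 10 genes that passed lay between 2 and 6 in PLC/PRF5 when each library was left out in turn, and that of pathway genes between 13 and 24. Of all genes, 16.5% to 34.3% passed in these fits, against 29.6% with every library. With GC and length correction, with and without the replicate block, 23 pathway genes passed in MHCC97H in place of 37. Of all genes, 47.8% passed there with the block and 47.5% without it. The difference of ID4 in PLC/PRF5 was -0.026 with quantile normalization and -0.013 to 0.22 without single libraries. In MHCC97H that of ID1 was -0.12 with equal totals, -0.23 with quantile normalization, -0.60 with GC and length correction (with and without the block) and -0.014 to 0.10 without single libraries, that of SMAD3 was -0.036 to 0.030 without single libraries, and that of SMAD7 was -0.12 with GC and length correction (with and without the block). Between the control cells, GC and length correction gave 0.18 for ID1 and 0.31 for BMP4. The causes were not tested. Over all settings, 399 values of single genes changed neither sign nor call, 27 lost the call, 3 gained one and 14 changed sign, and 68 of the counts stayed within 1.5 times their value and 5 did not. Deviations of same-numbered libraries from their group means had r of -0.13, 0.14 and -0.08 in PLC/PRF5 and 0.03, 0.03 and 0.47 in MHCC97H. The last was the highest of all pairs in MHCC97H. With 3 libraries a group these values cannot exclude a pairing, and the main fits assumed none. With the replicate block, 6 of the genes in PLC/PRF5 and 7 in MHCC97H passed, as without it, and 16 and 39 pathway genes in place of 21 and 37. Of all genes, 27.9% in PLC/PRF5 and 69% in MHCC97H passed with the block, against 29.6% and 66.3% without it.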
